A study of Mus musculus with 28 samples.

Results

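The 31 genes described here carry the steps by which cells make, take up, move, store and export cholesterol. They comprise 16 enzymes of sterol synthesis, 1 intracellular sterol carrier, 5 genes of the SREBP system that sets the rate of synthesis, 4 genes of the LXR system and of export, 3 genes of uptake and lysosomal egress, and 2 genes of storage and clearance. The genes were listed by symbol from their known functions. All 31 were found among the 25900 gene identifiers of the deposited table, each in 1 row, and all 31 passed the filter on low counts that left 16110 genes for testing.

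The libraries held polyA RNA of the frontal cortex of mice aged 20 months on a C57BL/6 background, and no treatment is given in the labels. HOM mice were homozygous for a knock-in allele of Tardbp that encodes TDP-43 with the Q331K substitution (10 libraries), HET mice carried 1 such allele (10 libraries), and WT mice were wild type (8 libraries). TDP-43 is an RNA-binding protein whose mutation causes amyotrophic lateral sclerosis, and a knock-in allele sits at the gene's own locus, under its own promoter. Separate animals are not stated for the libraries, and a p-value here therefore rests on the spread among libraries.

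The brain makes nearly all of its own cholesterol, because the blood-brain barrier keeps plasma lipoproteins out. Oligodendrocytes make large amounts for myelin, and in the adult astrocytes supply much of the rest and export it to neurons on lipoprotein particles. When sterol in the endoplasmic reticulum is scarce, the carrier SCAP brings the transcription factor SREBP2 to the Golgi for activation, and SREBP2 then switches on the genes of the synthesis enzymes. INSIG proteins hold SCAP back when sterol is plentiful, while the nuclear receptors of the LXR family sense oxysterols and switch on export.

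Libraries held 30.5 to 62.6 M reads in HOM, 45.0 to 74.9 M in HET and 46.6 to 64.1 M in WT (M, 1e6). Tardbp averaged 349 ± 18.9 CPM in HOM, 328 ± 13.3 in HET and 321 ± 13.6 in WT (SD, n = 10, 10 and 8), a log2 difference between HOM and WT of 0.12 (SE 0.0316, adjusted p = 0.0185, edgeR quasi-likelihood test). CPM is the count per 1e6 reads after TMM scaling, and the counts do not separate the mutant from the wild-type allele of Tardbp. Masp2, on the other strand, covers 23.3% of Tardbp exon sequence, and the strand setting of the counting is not given, so Tardbp counts are uncertain to that extent. The tissue label was checked on cortical markers: 5 markers of cortical excitatory neurons summed to 5030 to 5930 CPM in HOM, 5260 to 5800 in HET and 4990 to 5560 in WT. Markers of striatal neurons, the adjoining tissue, summed to at most 298 CPM in HOM, 197 in HET and 347 in WT.

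The genes differed widely in level. Per kilobase of exon, Hmgcs1, which encodes the enzyme that forms HMG-CoA near the start of the pathway, ranked highest in WT at 77.9 CPM per kb. Cyp46a1, the neuronal enzyme that turns cholesterol into 24S-hydroxycholesterol so that it can leave the brain, came second at 55.4 CPM per kb. Srebf2, Insig1 and Lrp1 followed at 31.9, 31.3 and 30.4 CPM per kb, values too close for an order given their spread between libraries. The lowest were Soat1, which esterifies cholesterol for storage, at 2.45 CPM per kb, and Nr1h3, which encodes LXR alpha, at 0.929 CPM per kb in WT. The plot of level per length shows the same order of magnitude for each gene in the 3 genotypes. Exon length counts all annotated exons of a gene merged, which can exceed the length of the transcript present. For Fdps it was 4.21 kb, while the longest annotated coding transcript had 1382 bases. Ranks between genes therefore also depend on the annotation.

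**Figure D1:**
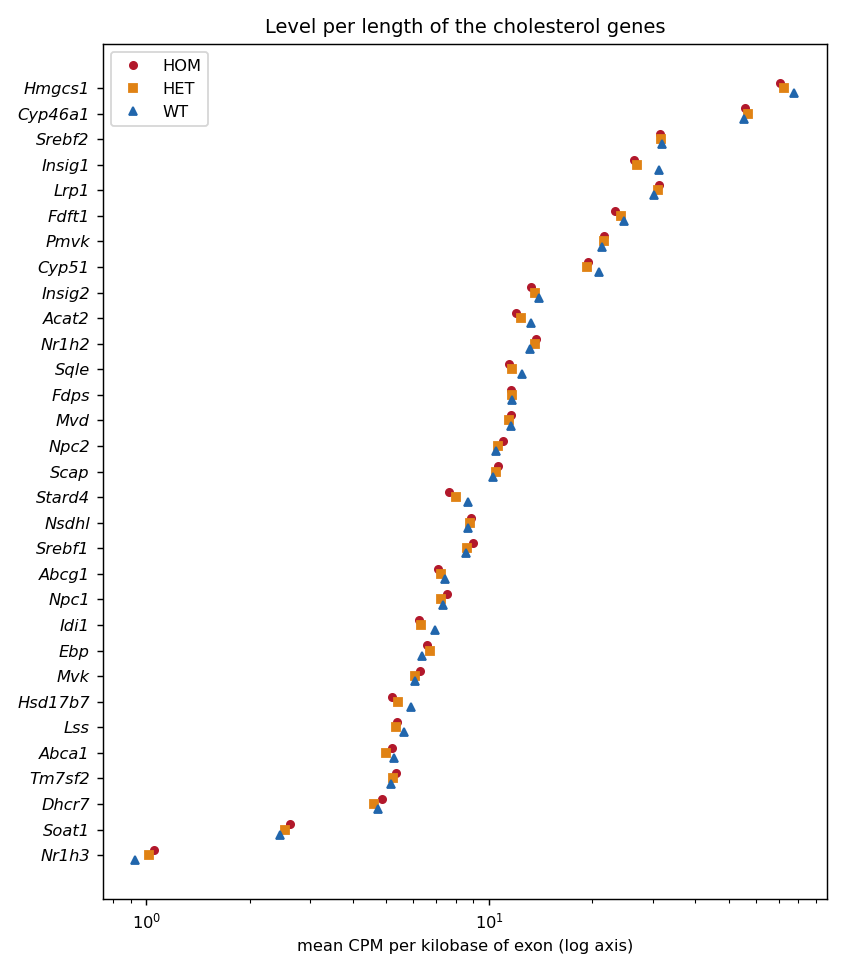
Mean CPM per kilobase of exon (all annotated exons merged, log axis) of the 31 cholesterol genes in HOM (circles), HET (squares) and WT (triangles), ordered by the WT level. Levels span 0.929 to 77.9 CPM per kb in WT, and differences between genotypes are small beside differences between genes.

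In HOM against WT, Stard4 and Acat2 were lower and no cholesterol gene was higher at an adjusted p under 0.05 over all 16110 genes (edgeR quasi-likelihood test). The 2 lower genes are 6.45% of the 31, while 3.71% of all genes tested were called lower and 3.9% higher in the same comparison. Before adjustment, 11 of the 31 genes (35.5%) had p under 0.05, against 24.6% of all genes, and 9 of the 31 (29.0%) were lower, against 11.4% of all genes. Counts over the 31 genes, here and below, are not independent results, since many of these genes varied together across libraries. Fold changes lay below 0 for 16 of the genes and above 0 for 15, and ranged from -0.24 to 0.17 on the log2 scale. The HOM and WT ranges overlapped for each of the 31 genes, while 0.459% of all genes had ranges that did not overlap.

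Stard4 encodes a soluble carrier that moves cholesterol between membranes inside the cell, and it is a known SREBP2 target. It lies on chromosome 18 (33199355 to 33213862, minus strand, GRCm38). Its level was 39.6 to 47.4 CPM in HOM (median 42.0), 39.3 to 48.8 CPM in HET (median 44.7) and 42.0 to 56.3 CPM in WT (median 49.2). All 10 HOM libraries lay below the WT mean, 5 of them under the WT minimum in WT 7, so the groups overlapped in part, with HOM 10 the highest of the HOM libraries and WT 6 the highest of all. The means were 42.6 ± 2.41 CPM in HOM, 44.7 ± 3.35 in HET and 48.6 ± 4.70 in WT (SD, n = 10, 10 and 8). Stard4 fell by 0.19 on the log2 scale in HOM relative to WT (SE 0.0493, adjusted p = 0.0185, edgeR), a 12.4% lower level. In bulk tissue, fewer cells of a type and less RNA per cell cannot be told apart. Without WT 6 the fold change was -0.16 with an adjusted p of 0.0556, and no other single library ended the call; it was also lost without both WT 6 and HOM 3, which lie at opposite extremes of a principal component analysis (-0.16, adjusted p = 0.0659), and with 2 surrogate variables (-0.12, adjusted p = 0.072).

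Acat2 encodes the cytosolic thiolase that joins 2 molecules of acetyl-CoA, the first step toward HMG-CoA. It lies on chromosome 17 (12942890 to 12960747, minus strand). Its level was 27.9 to 32.0 CPM in HOM (median 31), 25.7 to 34.7 CPM in HET (median 32.1) and 30.0 to 37.1 CPM in WT (median 33.6). Here too the 10 HOM libraries were all under the WT mean, 3 of them under the WT minimum, and the groups overlapped. Acat2 averaged 30.4 ± 1.48 CPM in HOM, 31.5 ± 2.48 in HET and 33.8 ± 2.26 in WT (SD, n = 10, 10 and 8), and fell by 0.15 on the log2 scale in HOM relative to WT (SE 0.0445, adjusted p = 0.0361, edgeR). The call was lost in turn without HOM 4, HOM 6, HOM 9, WT 1, WT 2, WT 3 or WT 6, with fold changes of -0.15 to -0.13 and adjusted p of 0.0505 to 0.0938, without both WT 6 and HOM 3 (-0.13, adjusted p = 0.106), and with 2 surrogate variables (-0.08, adjusted p = 0.163). Reads of Acat2 are uncertain in another way: 1477 bases of its transcript (65.6%) are 97.7% identical to Acat3, a neighbouring gene that averaged 5.42 ± 0.717 CPM in HOM and 4.89 ± 0.908 CPM in WT with a log2 fold change of 0.14 (adjusted p = 0.37). A further 445 bases (19.8%) are 98.7% identical to Tcp1, a chaperonin subunit gene that averaged 157 ± 4.37 CPM in HOM, 158 ± 3.75 in HET and 161 ± 3.46 in WT (fold change -0.03, adjusted p = 0.346).

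**Figure D2:**
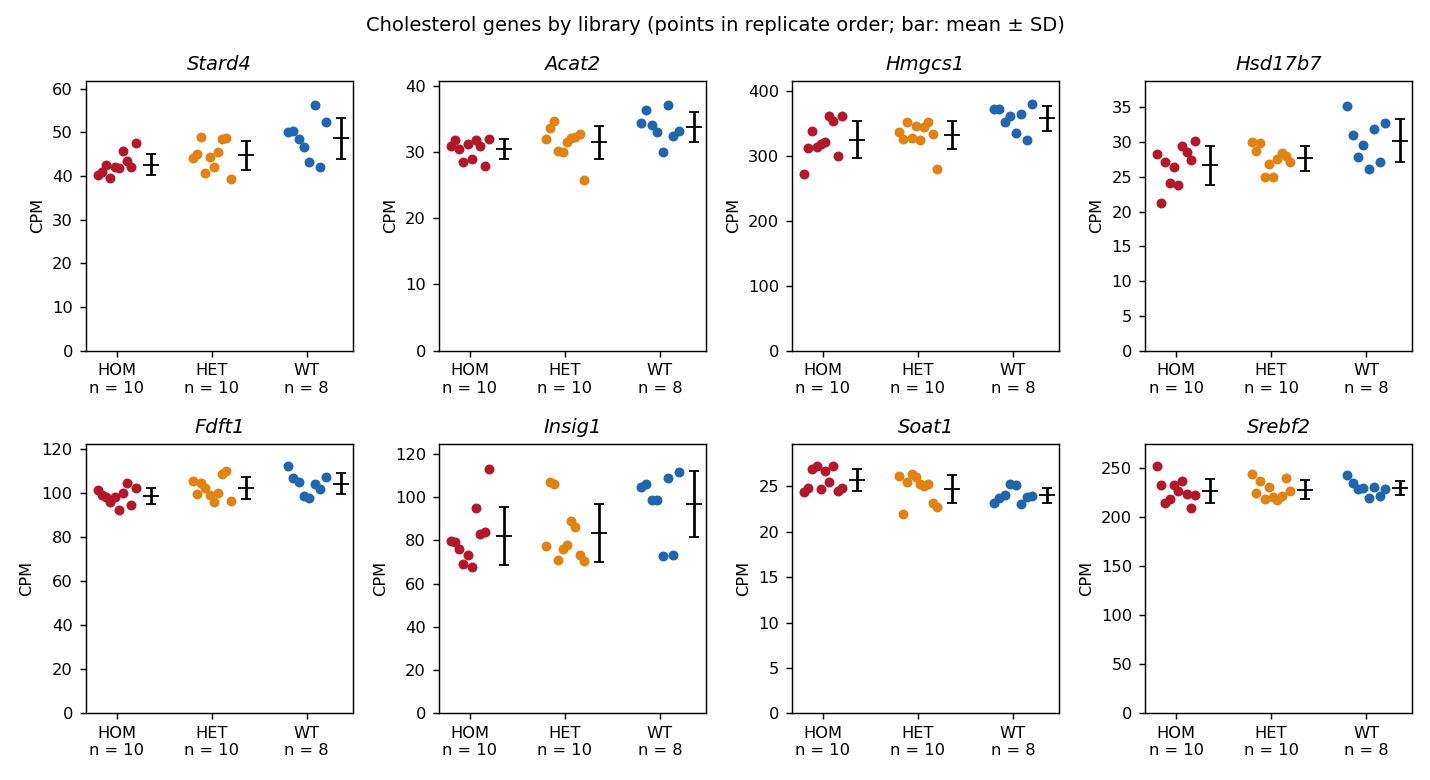
CPM of 8 cholesterol genes in each HOM, HET and WT library (points), with mean and SD (bars, n = 10, 10 and 8); each axis starts at 0. HOM libraries of Stard4 lie at 39.6 to 47.4 CPM, all below the WT mean of 48.6, while Srebf2 spans 209 to 252 CPM in HOM and 219 to 243 CPM in WT.

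Markers of other cell types also moved in HOM. In HOM against WT, 8 of 11 microglia, 3 of 5 oligodendrocyte precursor, 3 of 11 astrocyte, 3 of 9 endothelial and 1 of 7 meningeal markers were called higher and none lower (edgeR). Of all genes tested, 3.9% were called higher and 3.71% lower. The summed level of the astrocyte markers was 5740 to 6680 CPM in HOM, 5460 to 6530 in HET and 5500 to 6510 in WT, and that of the microglia markers 512 to 644 CPM in HOM, 465 to 544 in HET and 458 to 536 in WT. Precursor markers summed to 135 to 166 CPM in HOM, 128 to 155 in HET and 123 to 141 in WT, endothelial markers to 298 to 354 CPM in HOM, 274 to 346 in HET and 270 to 300 in WT, and meningeal markers to 43.4 to 181 CPM in HOM, 47.6 to 117 in HET and 34.9 to 74.9 in WT. In each of these lists the highest HOM library lay above the highest WT library, and the groups overlapped. The astrocyte gap junction gene Gja1 averaged 209 ± 12.2 CPM in HOM, 195 in HET and 181 ± 8.37 in WT (fold change 0.21, adjusted p = 0.000455), and the microglial complement gene C1qc 46.5 ± 4.82 CPM in HOM, 40.9 in HET and 38.3 ± 2.58 in WT (0.28, adjusted p = 0.00323). The precursor gene Pdgfra, the endothelial gene Cdh5 and the meningeal collagen gene Col1a1 had fold changes of 0.21, 0.21 and 0.79 (adjusted p = 0.00233, 0.0107 and 0.0311).

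Mature oligodendrocyte markers, whose cells make sterol for myelin, were not called in HOM against WT (0 of 12, edgeR). Their summed level was 3650 to 6940 CPM in HOM, 3730 to 5430 in HET and 3780 to 6570 in WT, and the median fold change of the 12 was -0.09. The smallest p belonged to Opalin, a myelin membrane gene, at 12.1 ± 2.88 CPM in HOM, 12.2 ± 3.14 in HET and 15.4 ± 3.95 in WT (-0.34, adjusted p = 0.196). Ugt8a, which makes the myelin lipid galactosylceramide, was next at 41.7 ± 9.21 CPM in HOM, 41.8 ± 5.83 in HET and 45.1 ± 7.64 in WT (-0.11, adjusted p = 0.58). Of the markers of choroid plexus, striatal neurons and cortical excitatory neurons, 0 of 6, 0 of 6 and 0 of 5 were called. The genes with the smallest p in these lists had log2 fold changes of 0.74 for Kcnj13 and -0.36 for Prlr (choroid plexus, adjusted p = 0.18 and 0.276), -0.27 for Gpr6 and 0.10 for Pde10a (striatum, adjusted p = 0.756 and 0.82) and 0.07 for Slc17a7 and 0.06 for Camk2a (cortex, adjusted p = 0.172 and 0.285). No marker in any of these lists was at 0 in all libraries. The part of tissue makeup in the lower Stard4 and Acat2 was not tested as a cause. As measured, both genes were still called with the mean log2 level of the oligodendrocyte markers as a covariate. With the astrocyte markers as covariate, Stard4 was at -0.11 (adjusted p = 0.548) and Acat2 at -0.07 (adjusted p = 0.705), and 29 genes were called over the whole table, against 1226 without that covariate. With the meningeal markers as covariate, Stard4 was at -0.16 (adjusted p = 0.0973) and Acat2 at -0.12 (adjusted p = 0.159).

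Hmgcs1 and Hsd17b7 came closest to the threshold among the other enzymes. Hmgcs1 stood at 273 to 362 CPM in HOM (median 319), 280 to 352 CPM in HET (median 335) and 325 to 379 CPM in WT (median 363). Below the WT minimum were 6 of the HOM libraries, 8 were below the WT mean, and HOM 1 was the lowest of all. HOM over WT gave a log2 change of -0.14 (SE 0.0467, adjusted p = 0.065, edgeR). It passed the threshold without HOM 7, HOM 8, HOM 10, HET 10 or WT 7, at -0.16 to -0.14 with adjusted p of 0.0344 to 0.0473, with DESeq2 (-0.14, adjusted p = 0.0415) and with limma voom (-0.14, adjusted p = 0.0294).

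Promoters were read to show which of 3 known elements they hold. Windows ran from 250 bases before to 50 after the RefSeq start (GRCm38.p6), and 25 of the 31 genes had one in the table used; Fdps, Fdft1, Sqle, Stard4, Npc1 and Abcg1 did not. The core TCACNCCAC of the sterol regulatory element, searched on both strands, was found in 1 of the 25 (Hmgcs1), or 4%, and in 1.24% of all 32851 promoters. The NF-Y box CCAAT was in 18 of the 25 (72%) and in 37.4% of all promoters, and the Sp1 box GGGCGG in 20 of the 25 (80%) and in 35.7% of all. NF-Y and Sp1 are common partners of SREBP at sterol-responsive promoters. The Acat2 promoter (chr17:12960676-12960975, minus strand) is printed because Acat2 was called, and the Hmgcs1 promoter (chr13:119690101-119690400, plus strand) because it held the core; capitals mark matches to any of the 3 motifs on either strand, and none of them overlap.
Acat2: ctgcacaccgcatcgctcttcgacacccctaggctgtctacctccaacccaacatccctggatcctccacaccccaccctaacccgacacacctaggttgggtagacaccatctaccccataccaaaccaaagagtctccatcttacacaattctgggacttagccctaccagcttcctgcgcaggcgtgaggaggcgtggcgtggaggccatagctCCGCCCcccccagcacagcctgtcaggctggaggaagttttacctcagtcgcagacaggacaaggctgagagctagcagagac
Hmgcs1: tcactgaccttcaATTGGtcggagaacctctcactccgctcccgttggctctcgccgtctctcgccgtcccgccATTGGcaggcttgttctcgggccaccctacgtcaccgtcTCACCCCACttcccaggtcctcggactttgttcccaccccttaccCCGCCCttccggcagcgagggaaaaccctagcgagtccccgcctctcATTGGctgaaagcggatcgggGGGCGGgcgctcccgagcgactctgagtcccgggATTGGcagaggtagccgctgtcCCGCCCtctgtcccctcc
In Hmgcs1 the core begins at position -137 from the RefSeq start, with 4 CCAAT boxes and 3 GGGCGG boxes in the same window. That start lies upstream of the gene's start in the deposited table (119690462), and it did not match a transcript start in GENCODE vM21. The RefSeq starts of Lss, Nsdhl, Nr1h2 and Cyp46a1 did not match a transcript start there either. Of the 13 synthesis enzymes with a promoter in the table, 11 held a CCAAT box and 12 a GGGCGG box, against 37.4% and 35.7% of all promoters. The Acat2 window held 1 GGGCGG box and neither of the other elements by these letters. A match is a string of letters and not a measured binding site, and variant elements with other letters were not searched.

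Hsd17b7 encodes a ketosteroid reductase that acts after lanosterol in the pathway. Its level was 21.2 to 30.2 CPM in HOM (median 27.3), 25.0 to 30.0 CPM in HET (median 27.8) and 26.2 to 35.2 CPM in WT (median 30.3). All 10 HOM and all 10 HET libraries lay below the WT mean of 30.2 CPM, although the groups overlapped. On the log2 scale the HOM over WT change was -0.18 (SE 0.0593, adjusted p = 0.0617, edgeR). It passed the threshold without HOM 7, HOM 10, WT 5 or WT 7, at -0.21 to -0.20 with adjusted p of 0.0321 to 0.0472, with DESeq2 (-0.18, adjusted p = 0.0353), with limma voom (-0.20, adjusted p = 0.0291) and with the oligodendrocyte covariate (-0.20, adjusted p = 0.0311).

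Fdft1, squalene synthase, which commits the pathway to sterols, had 92.5 to 105 CPM in HOM (median 98.7), 95.8 to 110 CPM in HET (median 101) and 97.7 to 112 CPM in WT (median 105). The fitted log2 change of HOM against WT came to -0.08 (SE 0.0305, adjusted p = 0.102, edgeR). Of its exon sequence, 18.3% overlaps Ctsb on the other strand, which stood at 669 CPM in HOM, 667 in HET and 667 in WT.

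The other enzymes had fold changes on both sides of 0. Idi1, which isomerises isopentenyl diphosphate, Sqle, which oxidises squalene, Cyp51, which demethylates lanosterol, and Lss, which makes lanosterol, had log2 fold changes in HOM against WT of -0.15, -0.13, -0.11 and -0.06 (adjusted p = 0.157, 0.14, 0.238 and 0.593, edgeR). The remaining 8 lay between -0.01 and 0.05: Mvk, Pmvk and Mvd of the mevalonate segment, Fdps, which makes farnesyl diphosphate, and Tm7sf2, Nsdhl, Ebp and Dhcr7, which act after lanosterol. Counts of Fdps, Idi1, Fdft1 and Insig1 are uncertain to the extent that processed pseudogenes at least 95% identical over 150 bases or more exist for each, and those of Fdps also because 26.7% of its exon sequence overlaps Gm43738 on the same strand. Vps51 overlaps 12.1% of the exon sequence of Tm7sf2, also on the same strand. Antisense or other opposite-strand transcripts overlap 12.1% of the exon sequence of Hmgcs1, 13.2% of Scap and 9.2% of Idi1. Across the 16 enzymes, 1 was called lower (6.25%) and 0 higher, against 3.71% and 3.9% of all genes tested. Fold changes of 10 lay below 0 (62.5%, against 47.7% of all genes), and the median log2 fold change was -0.04, against 0.01. Before adjustment 6 of the 16 (37.5%) had p under 0.05, all 6 lower. Over all genes 24.6% had p under 0.05, and 11.4% were lower at that level. These counts are not independent, since the enzymes varied together across libraries. Among the 16 enzymes in the plot of fold changes by gene, the most negative values belong to Acat2, Hmgcs1 and Idi1 early in the pathway and to Fdft1, Sqle, Cyp51 and Hsd17b7 from squalene onward, with values near 0 between and among them.

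**Figure D3:**
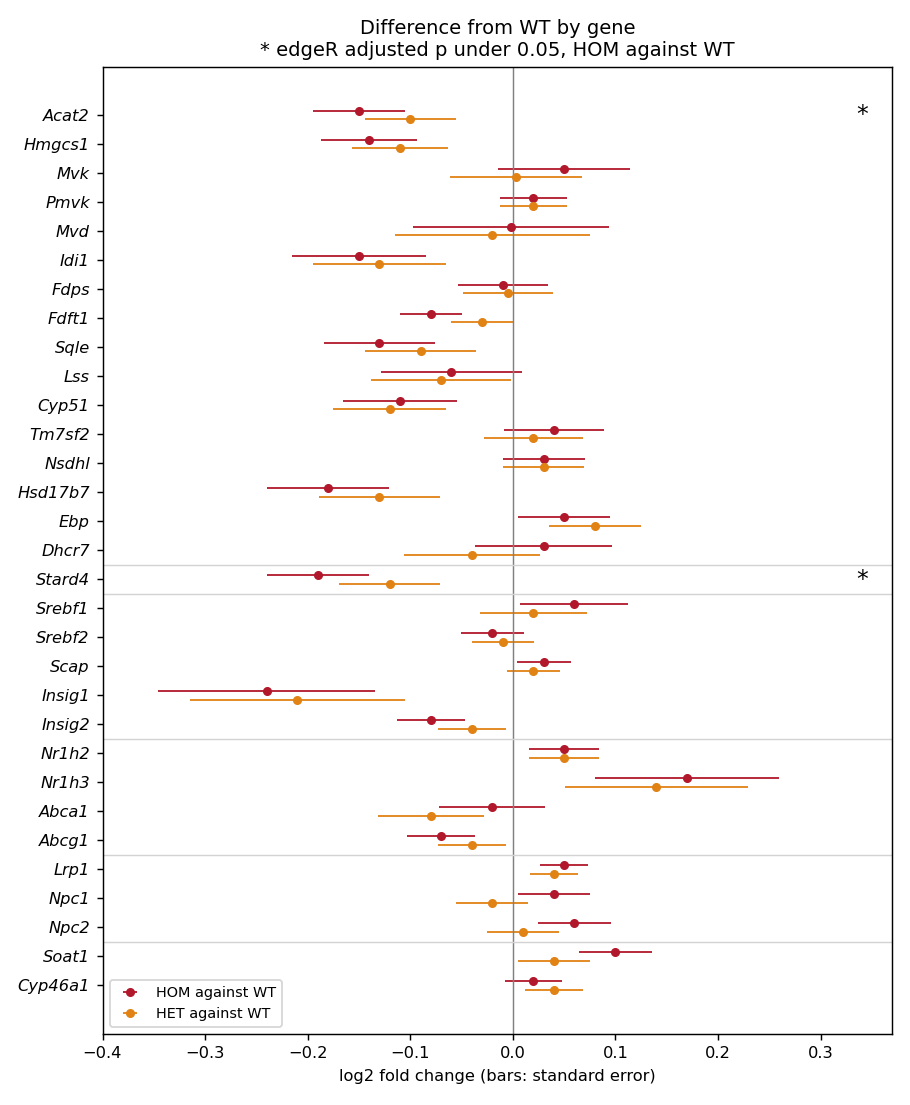
Log2 fold change against WT of each cholesterol gene in HOM and in HET, with standard errors from the edgeR fit; grey lines part the roles and stars mark an adjusted p under 0.05 in HOM. Stard4 (-0.19) and Acat2 (-0.15) carry stars, and Insig1 has the widest standard error at 0.106.

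None of the 5 genes of the SREBP system was called in HOM against WT (edgeR). Before adjustment, 2 of the 5 (40%), Insig1 and Insig2, had p under 0.05, against 24.6% of all genes. Srebf2, which encodes the main activator of sterol synthesis, had 209 to 252 CPM in HOM (median 225), 217 to 244 CPM in HET (median 226) and 219 to 243 CPM in WT (median 229), with a log2 change (HOM over WT) of -0.02 (SE 0.0304, adjusted p = 0.782, edgeR). Srebf1, which favours fatty acid synthesis, averaged 50.4 ± 4.63 CPM in HOM, 48.7 ± 4.54 in HET and 48.2 ± 2.20 in WT, and its fold change was 0.06 (adjusted p = 0.477). Scap, their escort protein, averaged 78.8 ± 3.44 CPM in HOM, 78.2 ± 2.20 in HET and 76.9 ± 2.49 in WT, with a fold change of 0.03 (adjusted p = 0.452).

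Insig1, which is itself switched on by SREBP, was the most variable of the regulators. It ranged from 67.5 to 113 CPM in HOM (median 79.4), from 70.5 to 107 CPM in HET (median 77.6) and from 72.9 to 112 CPM in WT (median 102). In HOM 9 of 10 libraries and in HET 8 of 10 lay below the WT mean, but the highest HOM library, HOM 10, stood above every WT library. In the fit, the log2 change of HOM from WT was -0.24 (SE 0.106, adjusted p = 0.157, edgeR), the lowest of the 31 genes, and limma voom called it (-0.31, adjusted p = 0.0472). Insig2, whose transcript is known to be less dependent on SREBP, averaged 46.1 ± 3.19 CPM in HOM, 47.3 ± 1.25 in HET and 48.7 ± 1.65 in WT, with a fold change of -0.08 (SE 0.0332, adjusted p = 0.139), called with 2 surrogate variables (-0.11, adjusted p = 0.0419).

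No gene of the LXR system or of export was called in HOM against WT by edgeR, DESeq2 or limma voom. Before adjustment, 0 of the 4 had p under 0.05 (edgeR), against 24.6% of all genes. Nr1h2, which encodes the widely expressed LXR beta, averaged 45.8 ± 3.13 CPM in HOM, 45.7 ± 2.07 in HET and 44.2 ± 0.778 in WT, a log2 change (HOM over WT) of 0.05 (adjusted p = 0.376, edgeR). Nr1h3, which encodes LXR alpha, averaged 2.64 ± 0.341 CPM in HOM, 2.57 ± 0.415 in HET and 2.34 ± 0.179 in WT, a fold change of 0.17 (SE 0.0896, adjusted p = 0.241), and rests on 87 to 195 reads per library. The exporters that LXR switches on had fold changes below 0. Abca1, which loads lipid onto apolipoproteins, averaged 54.1 ± 4.61 CPM in HOM, 51.8 ± 3.76 in HET and 54.7 ± 4.47 in WT (fold change -0.02, adjusted p = 0.888). Abcg1, which passes cholesterol to lipidated particles, averaged 51.9 ± 3.29 CPM in HOM, 52.7 ± 1.29 in HET and 54.2 ± 2.55 in WT (fold change -0.07, adjusted p = 0.224).

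The 3 genes of uptake and lysosomal egress had small positive fold changes in HOM against WT, and none was called by edgeR. Lrp1, a large receptor that takes up lipoproteins, had 533 to 578 CPM in HOM (median 556), 529 to 580 CPM in HET (median 554) and 515 to 563 CPM in WT (median 539), with a log2 fold change of 0.05 (SE 0.0232, adjusted p = 0.176, edgeR). In 5 of the 10 HOM libraries it exceeded all WT libraries. Npc1 and Npc2, the membrane and soluble proteins that pass cholesterol out of the lysosome, had fold changes of 0.04 and 0.06 (adjusted p = 0.545 and 0.327). Npc1 averaged 85.2 ± 5.54 CPM in HOM, 81.7 ± 3.67 in HET and 83.1 ± 3.55 in WT, and Npc2 averaged 59.6 ± 3.72 CPM in HOM, 57.8 ± 2.40 in HET and 57.4 ± 3.01 in WT.

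Soat1 was the gene nearest to a call in the upward direction. It had 24.4 to 27.2 CPM in HOM (median 25.1), 22 to 26.4 CPM in HET (median 25.3) and 23.0 to 25.3 CPM in WT (median 23.9). Each of the 10 HOM libraries was above the WT mean, 5 of them above all WT libraries. Its log2 change in HOM relative to WT was 0.10 (SE 0.0356, adjusted p = 0.0906, edgeR), and it was called by limma voom (0.11, adjusted p = 0.0306) and with the oligodendrocyte covariate (0.11, adjusted p = 0.0455). Cyp46a1 averaged 184 ± 8.98 CPM in HOM, 187 ± 6.51 in HET and 182 ± 5.93 in WT, with a fold change of 0.02 (adjusted p = 0.753).

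With a single mutant allele, no cholesterol gene was called against WT, and 0% of all genes tested were called (edgeR). DESeq2 and limma voom also called 0 of the 31, while they called 12 and 14 genes of the whole table. Before adjustment 5 of the 31 had p under 0.05 in HET against WT, all 5 lower (16.1%), and 4.66% of all genes were lower at that level. The log2 fold changes of HET over WT were -0.12 for Stard4, -0.10 for Acat2, -0.11 for Hmgcs1 and -0.13 for Hsd17b7 (adjusted p = 0.447, 0.475, 0.475 and 0.508). Cyp51, the remaining gene of the 5, was at -0.12 (adjusted p = 0.508, edgeR), and in HOM against WT it was no lower, at -0.11. Since HET and HOM were set against the same WT libraries, these values are not independent of those in HOM.

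In HOM against HET, 0 of the 31 genes were called by edgeR and 0 had an unadjusted p under 0.05, and DESeq2 and limma voom called 0 as well. Over all genes, 0.0372% were called in that comparison by edgeR, and 8.54% had an unadjusted p under 0.05. The log2 differences of HOM over HET ran from -0.07 for Stard4 to 0.06. A linear slope on the number of alleles called Stard4 and Acat2 lower, at -0.09 and -0.07 log2 per allele (adjusted p = 0.017 and 0.034, edgeR), with 3.79% of all genes called lower and 3.99% higher. The test for departure from that straight line called 0 of the 31 and 0% of all genes by edgeR, DESeq2 and limma voom. Before adjustment, 0 of the 31 had p under 0.05 in that test (edgeR), against 2.83% of all genes. For Stard4 the departure was 0.05 with an SE of 0.0822, and for Acat2 0.05 with an SE of 0.0741, errors too wide to show that HET lay midway.

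The libraries themselves differed within each genotype in a way that ran across many of the genes. HOM 10 was the highest HOM library for 11 of the 16 enzymes, WT 1 the highest WT library for 9, and WT 7 the lowest WT library for 8. Among HET libraries, HET 10 was the lowest for 7 of the 16. Averaged over the 16 enzymes, the log2 level relative to the WT mean ran from -0.15 to 0.12 in HOM (median -0.06), from -0.18 to 0.08 in HET (median -0.04) and from -0.13 to 0.12 in WT (median 0.04). It lay below 0 in 7 of 10 HOM, 7 of 10 HET and 3 of 8 WT libraries, so the genotypes overlapped almost fully on this average. In the map of all genes by library, the rows of Stard4 and Insig1 lie below the WT mean in most HOM libraries, while columns HOM 10 and WT 1 are high across the enzymes.

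**Figure D4:**
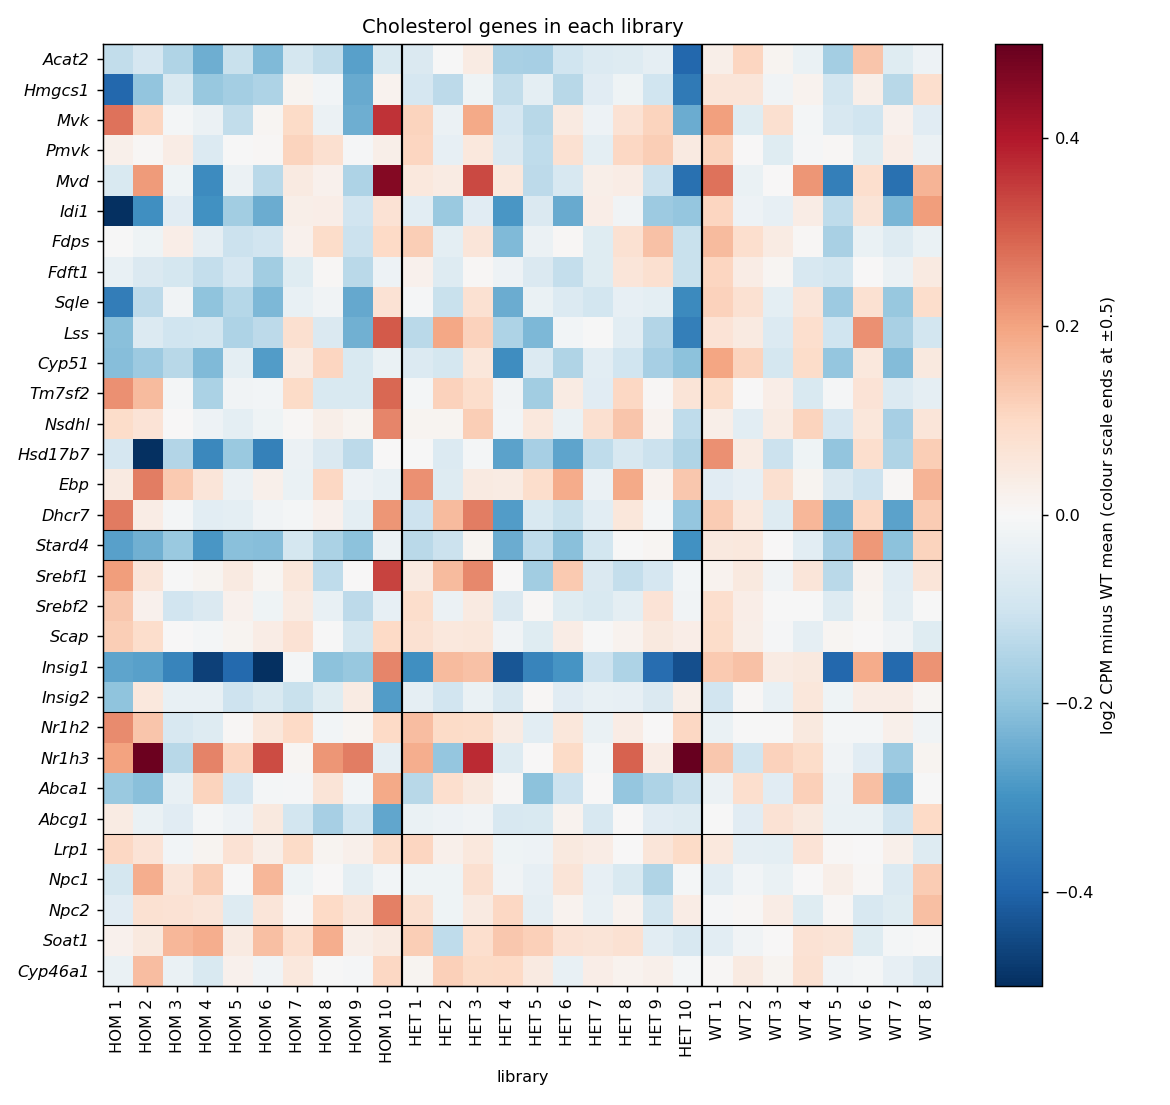
Log2 CPM minus the WT mean for the 31 cholesterol genes (rows, in order of role) in each HOM, HET and WT library (columns); the colour scale ends at ±0.5. Columns such as HOM 10 (high) and HET 10 (low) differ from their own genotype across many synthesis enzymes.

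After the genotype means were removed, the enzymes varied together across the 28 libraries. The median Pearson correlation over the 120 pairs of synthesis enzymes was 0.48, and 11.7% of pairs exceeded 0.7, against a median of 0 and 0.245% over all pairs of genes tested. These correlations are descriptions over libraries that also differ in depth and tissue makeup, and no p is given. The pairs of all genes include genes of far lower counts, such as Ch25h at 6 to 30 reads per library. Each enzyme had 491 reads or more in every library, so the sets were not matched for level. The closest pair was Hmgcs1 and Sqle, at r = 0.89 (Spearman rho 0.89), and at 0.86 without the libraries farthest from the median, HET 10 and HOM 1. Within HOM alone the same pair had r = 0.93, within HET 0.83 and within WT 0.97.

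Stard4 and Insig1 followed the enzymes as closely as the enzymes followed each other. The median correlation with the 16 enzymes was 0.66 for Stard4 and 0.64 for Insig1, compared with 0.61 for Sqle and 0.51 for Hmgcs1. Stard4 was closest to Sqle (r = 0.79, rho 0.77, and 0.77 without HET 10 and HOM 1), and Insig1 to Dhcr7 (r = 0.80, rho 0.76, and 0.83 without HET 3 and HOM 1). Acat2 and Stard4, the called genes, had r = 0.73 with each other, and 0.65 without HET 10 and WT 5. The libraries left out lay farthest from the median of Sqle, Dhcr7 and Acat2, respectively. Those farthest out for Stard4 (WT 6 and WT 7) and for Insig1 (HOM 10 and WT 5) stayed in. Ebp stood apart from the other enzymes at a median of -0.04, and Insig2 ran against them at -0.34. Pooled values can cover unlike values within genotypes, as in 2 pairs chosen after their values were seen. Srebf2, with a pooled median of 0.33, had r with Fdps of 0.07 in HOM, 0.71 in HET and 0.94 in WT, and Abcg1, with a pooled median of -0.10, had r with Idi1 of -0.83 in HOM, -0.02 in HET and 0.69 in WT. These correlations rest on 10, 10 and 8 libraries, and their difference between genotypes was not tested.

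**Figure D5:**
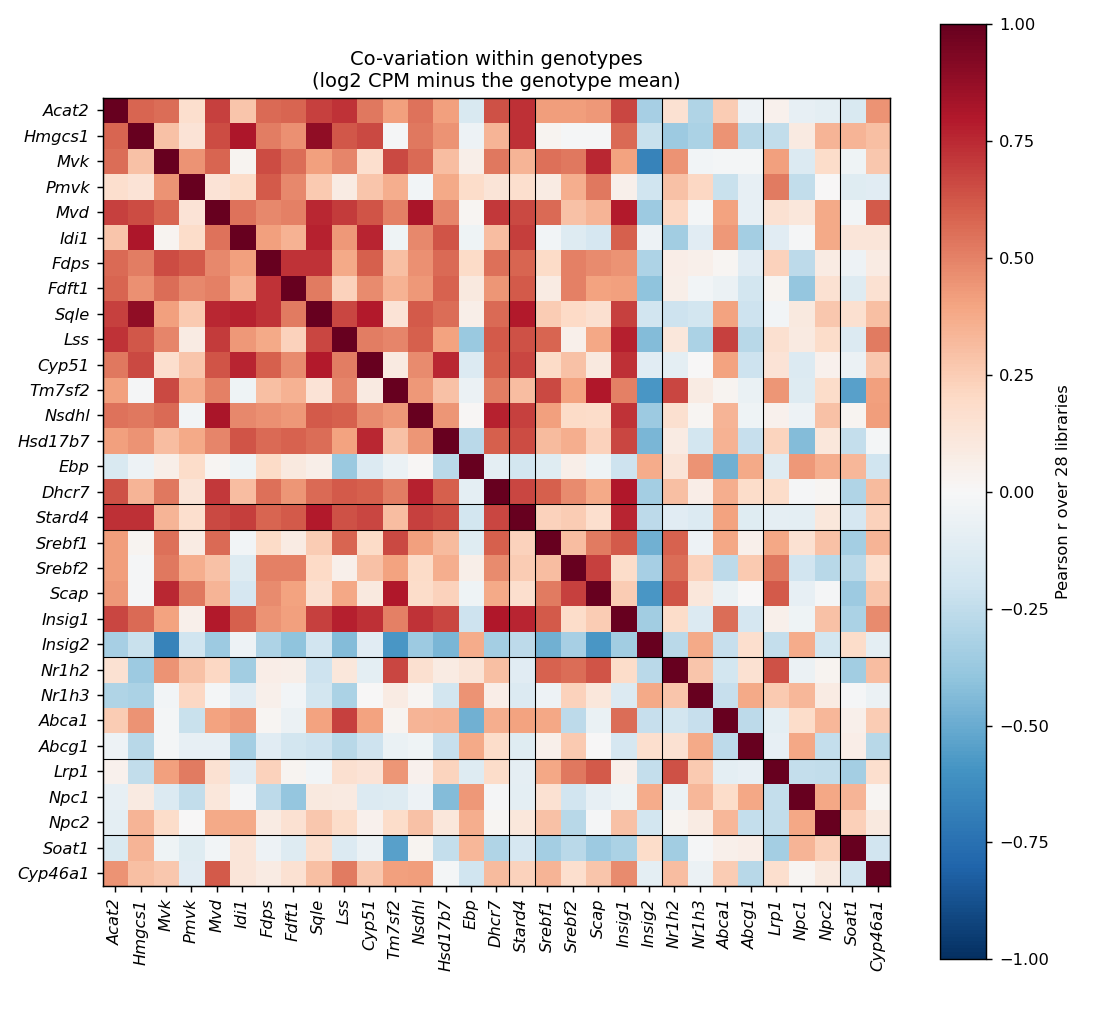
Pearson correlation between the 31 cholesterol genes over 28 libraries, on log2 CPM after the mean of each genotype was subtracted; black lines part the roles. The block of synthesis enzymes with Stard4 and Insig1 is mostly positive, apart from Ebp, and Insig2 is mostly negative.

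Other genes of the pathway were read from a list of 18. Stard3, which moves cholesterol from late endosomes, rose in HOM, with 31 ± 1.72 CPM in HOM, 30.3 ± 1.27 in HET and 28.1 ± 1.78 in WT (log2 change, HOM over WT, 0.14, adjusted p = 0.0185, edgeR). Abca7, a transporter related to Abca1 and a risk gene for Alzheimer's disease, rose as well, with 37.2 ± 1.78 CPM in HOM, 36.2 ± 3.18 in HET and 32.8 ± 2.70 in WT (fold change 0.18, adjusted p = 0.0224). Ggps1, which draws farnesyl diphosphate off toward geranylgeranyl groups, fell, with 35.9 ± 1.96 CPM in HOM, 36.9 ± 0.915 in HET and 38.5 ± 1.47 in WT (fold change -0.10, adjusted p = 0.0451). The median of the 18 was 0.01 on the log2 scale, and 2 were called higher and 1 lower, while 3.9% of all genes were called higher and 3.71% lower. Among 12 genes of fatty acid synthesis and desaturation, which SREBP also controls, 0 were called in HOM against WT by edgeR and the median was 0.00. Fads1, a desaturase, came nearest at 0.09 (adjusted p = 0.0516), followed by Fads2 at 0.08 (adjusted p = 0.189).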

How the data were processed

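PolyA RNA of frontal cortex was sequenced in 28 libraries, from tissue that was snap frozen, with RNA extracted by TRIsure and RNeasy and libraries made with a stranded mRNA kit, per the labels' protocols. The submitters' processing notes name Trim Galore 0.4.3, HISAT2 2.0.5 and the build GRCm38. How reads were counted, with which strand setting and annotation, is not given in the sources used here. As deposited by the authors, the table holds unscaled counts per gene, whole numbers whose totals differ between libraries. Rows of 57 identifiers listed more than once were summed. Each of the 378 pairs of libraries differed by more than sampling noise (chi-square per degree of freedom of at least 6.6).

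In edgeR 4.0.16 (R 4.3.3), genes passing filterByExpr (16110) were scaled by TMM and fitted with a mean per genotype over all 28 libraries, without a replicate term (glmQLFit and glmQLFTest, robust, two-sided); a separate fit gave the slope on allele number. Benjamini-Hochberg adjustment covered all genes tested, with 0.05 as the threshold, and the biological coefficient of variation was 8.46%. The total count per library had a median of 53.5 M reads. Fits were tested on simulated data. The lowest count of a cholesterol gene in a library was 87 reads, for Nr1h3.

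The genes, the other gene lists and the alternatives were chosen with earlier results of these data known. Text names all 31 genes by role; ranges are given for the called genes, for the 4 further genes with the smallest p in HOM against WT and for a few others, and other lists show at most 4 called genes or, where none was called, the 2 with the smallest p. Exon lengths and overlaps came from GENCODE vM21, promoters from RefSeq. Alternatives used DESeq2 1.42.0, limma 3.58.1 (voom), sva 3.50.0, other filters and scaling, covariates, and libraries left out.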

Additional observations from a re-analysis of the deposited data

Results flagged for a closer look

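Each genotype's values of the 31 genes were checked for a single library far from the others by Dixon's test, and 4 of 93 groups of values stood out, where chance gives about 1 in 20. HET 10 was low for Acat2, at 25.7 CPM against 30.0 to 34.7 CPM in the other HET libraries, and for Hmgcs1, at 280 CPM against 325 to 352 CPM. HOM 10 was high for Nsdhl, at 29.2 CPM against 23.9 to 26.3 CPM in the other HOM libraries, and for Npc2, at 68.1 CPM against 54.8 to 61.3 CPM. HET 10 held the lowest HET value of 7 and HOM 10 the highest HOM value of 11 of the 16 synthesis enzymes. Those counts include the flagged values of Acat2, Hmgcs1 and Nsdhl.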

How the results depend on the processing

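As reported, 2 cholesterol genes were called in HOM against WT and 2 in the slope on allele number. The count stayed at 2 in HOM against WT with DESeq2 size factors, without a count filter, with a filter of 1 CPM in 8 libraries, with only the groups compared and without HOM 1 and HOM 2. DESeq2 called 4 in HOM against WT and 4 in the slope, limma voom 6 and 5, a fit with 2 surrogate variables 1 and 1 (Insig2), and one with the oligodendrocyte score as covariate 4 and 5. In that order, these fits called 1562, 1392, 1386 and 1418 genes of the whole table in HOM against WT, where the main fit called 1226. In the slope they called 1598, 1395, 1433 and 1495, against 1254. With the astrocyte score, with the meningeal score, and without WT 6 and HOM 3, 0 were called in either; over all genes these fits called 29, 387 and 509 in HOM against WT, against 1226. The cause was not tested. With each library left out in turn the count ran from 0 to 4 in HOM against WT and from 1 to 4 in the slope. Over all genes, 595 (without WT 6) to 1345 were called in HOM against WT. The count of cholesterol genes was 0 without WT 6, 1 without HOM 4, HOM 6, HOM 9, WT 1, WT 2 or WT 3, and 4 without HOM 7, HOM 10 or WT 7. In the slope it was 1 without HOM 4, HOM 6, HOM 9, WT 1, WT 2 or WT 6, and 4 without HOM 7, HOM 8, HOM 10 or WT 5. In HET against WT, HOM against HET and the departure test, 0 were called under each alternative run, while over all genes DESeq2 and limma voom called 50 and 42 in HOM against HET, against 6 by edgeR. The median of the synthesis enzymes was -0.04, and it lay between -0.08 and 0.01 under the alternatives. Stard4 and Acat2 kept a negative fold change under each alternative, from -0.22 to -0.11 for Stard4 (adjusted p 0.00539 to 0.548) and from -0.18 to -0.07 for Acat2 (adjusted p 0.0114 to 0.705).

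Libraries with the same number did not deviate together (correlations of -0.164 to 0.183 between genotypes), so the numbers were not taken as pairs. With the replicate block, 2 genes were called in HOM against WT, Stard4 at -0.20 (adjusted p = 0.0386) and Soat1 at 0.12 (adjusted p = 0.039), while Acat2 was at -0.13 (adjusted p = 0.0906); 737 genes were called in all. Standard errors in HOM against WT ran from 0.0232 (Lrp1) to 0.106 (Insig1) on the log2 scale and limit what single genes can show. Depth limits the least expressed gene most, Nr1h3, with 87 to 195 reads per library.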
